A study of Mus musculus with 10 samples.

Results

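The genes described are the DEAD box (Ddx) and DEAH box (Dhx) helicase genes of the mouse, taken by their symbols (Ddx or Dhx, a number and at most 1 further letter). Ddx6, the helicase of P-bodies and a protein partner of 4E-T, was left out by the same rule. Of the 52 such symbols in the reference gene table, 49 had a probe set annotated to that gene alone, 33 of them Ddx and 16 Dhx genes, among 22180 genes measured. Ddx19a and Ddx3y had no probe set of that kind, and Ddx49 was listed only on a probe set shared with Homer3. The tissue was embryonic cortex of the outbred CD1 strain, taken at days 12 to 13 of gestation, with no genetic change or treatment named in the labels. The 4ET-IP group (n = 3, replicates 1 to 3) held RNA that came down with an antibody against 4E-T, the IgG-IP group (n = 3, replicates 2 to 4) RNA that came down with control IgG, and the input group (n = 4, replicates 1 to 4) total RNA. The design text names biological replicates, 3 for each condition, whereas 4 inputs are labelled. All were hybridised to 10 Affymetrix Mouse Gene 2.0 ST arrays, and whether embryos were pooled for an array is not given in the sources used here.

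DEAD and DEAH box proteins use ATP to unwind short RNA duplexes or to strip proteins from RNA. They act at nearly every step of an RNA's life, from transcription and splicing through export and ribosome assembly to translation and decay. 4E-T binds the cap-binding protein eIF4E and keeps bound mRNAs from being translated, so its precipitate is meant to sample mRNAs held in such complexes. Background RNA can come down as well, which is what the control IgG precipitate is for. The level of a helicase mRNA in the 4E-T precipitate says nothing of the helicase protein.

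Values are RMA log2 intensities, so a difference of 1 is a doubling, and they are relative within an array. In bulk tissue, RNA from fewer cells and less RNA per cell cannot be told apart. Input 1 and 4ET-IP 1 had array medians of 3.54 and 3.52, against 4.33 to 4.54 for the other 8, and are called the lower set. The fit therefore had a term for that set beside the group. A call means a limma p, adjusted by Benjamini-Hochberg over all genes, below 0.05, and errors of differences are standard errors of that fit. The set term removes a shift that touches 4ET-IP and input but not IgG-IP, and values from a fit with group alone are given where they change a call. Over all genes, 2326 were called for 4ET-IP over IgG-IP (72.1% of them higher, against 52.5% with group alone and 53.2% after quantile normalization of all arrays). For 4ET-IP over input the number was 4274 (54.0% higher, 41.7% with group alone). For IgG-IP over input it was 3688 (36.9% higher, 26.7% with group alone and 48.3% after quantile normalization). The medians of the differences over all genes were 0.03, 0.04 and 0.03, and with group alone -0.19, -0.02 and 0.20. The cortical markers Emx1, Pax6, Sox2, Eomes, Tbr1, Neurod6 and Tubb3 lay between 6.89 and 11.06 on the 3 other inputs, all above the median of all genes there (4.90). Of the 3 erythroid markers measured 3 were above that median, and of 4 endothelial, 4 microglial and 4 meningeal and mesenchymal markers 2 each.

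MicroRNA sequences are shown for 2 of the helicase genes that have short RNA genes inside them. In the reference gene table, 5 of the 49 helicase genes held a microRNA, snoRNA or snRNA gene within their limits (strand not considered). Ddx5 held Mir3064, and Ddx39b held Mir6975, Mir8094 and 2 snoRNA genes. The other 3 were Ddx39a (Mir1668), Ddx19b (Mir3473d) and Dhx33 (an snRNA gene). Of the 3 helicase genes that were lower in 4ET-IP than in IgG-IP, both Ddx5 and Ddx39b are in this group and Ddx17 is not. Ddx39a (-0.31), Ddx19b (0.42) and Dhx33 (-0.29) were not called in that comparison. The share of all genes that hold such a gene was not counted, and a link with the level in 4ET-IP was not tested. The mature microRNAs of Ddx5 and Ddx39b are shown because one probe set reads Ddx5 together with Mir3064, and none of these microRNAs had a probe set of its own. The sequences are from RefSeq (GRCm38.p6), 5′ to 3′, and capitals mark the seed (bases 2 to 8). All 5 seeds differ.
miR-3064-5p (in Ddx5): uCUGGCUGuuguggugugcaaa
miR-3064-3p (in Ddx5): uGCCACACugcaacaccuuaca
miR-6975-5p (in Ddx39b): gCUGGGGAgaaagggguuuggca
miR-6975-3p (in Ddx39b): uCUCUCCUuucuccuccuag
miR-8094 (in Ddx39b): aACUGAAGgacaacgagaaga

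The 250 bases before the first listed start of Ddx5, Ddx17 and Ddx39b are shown because these were the genes called lower with 4E-T than with IgG. They were searched on both strands for 3 motifs, and capitals mark matches. The CCAAT box was searched as its name spells it, the GC box as GGGCGG, and the TATA box as TATAAA. The table lists 3 starts for Ddx5, 2 for Ddx17 and 1 for Ddx39b. Coordinates are RefSeq GRCm38.p6.
Ddx5, chr11:106789186-106789435, minus strand: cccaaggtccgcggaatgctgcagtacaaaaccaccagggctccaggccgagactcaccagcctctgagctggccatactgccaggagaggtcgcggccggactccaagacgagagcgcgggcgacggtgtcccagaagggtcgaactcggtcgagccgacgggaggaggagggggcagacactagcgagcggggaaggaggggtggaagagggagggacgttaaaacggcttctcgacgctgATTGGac
Ddx17, chr15:79546742-79546991, minus strand: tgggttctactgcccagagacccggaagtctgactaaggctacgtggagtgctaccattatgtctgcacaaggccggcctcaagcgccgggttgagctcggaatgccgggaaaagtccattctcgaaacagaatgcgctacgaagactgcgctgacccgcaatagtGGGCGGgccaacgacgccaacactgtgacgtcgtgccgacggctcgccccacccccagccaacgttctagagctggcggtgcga
Ddx39b, chr17:35241496-35241745, plus strand: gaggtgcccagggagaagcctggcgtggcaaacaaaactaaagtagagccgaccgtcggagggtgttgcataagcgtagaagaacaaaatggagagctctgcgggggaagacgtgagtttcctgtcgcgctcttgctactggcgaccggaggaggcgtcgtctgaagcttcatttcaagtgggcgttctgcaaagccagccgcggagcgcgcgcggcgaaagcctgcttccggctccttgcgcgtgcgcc
The window of Ddx5 held 1 match to CCAAT (on the other strand), that of Ddx17 held 1 GC box, and that of Ddx39b held none of the 3 motifs. Over the 54 listed windows of 44 helicase genes, 40.7% held CCAAT, 57.4% a GC box and 7.41% a TATA box, against 33.8%, 32.7% and 12.4% of all 32851 windows. These are matches of letters, and no measurement here bears on the promoters themselves.

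The first comparison asked which helicase mRNAs were at a higher or lower relative level with the 4E-T antibody than with control IgG. Ddx5, which encodes p68, a cofactor of transcription and of RNA processing, was 4.40-fold lower, and its close relative Ddx17 (p72) was 2.51-fold lower. Ddx39b, which encodes the export and splicing helicase UAP56, was 1.63-fold lower. Ddx20, which encodes gemin 3 of the SMN complex that assembles spliceosomal snRNPs, was 1.60-fold higher. The other 45 genes did not pass the test. So 1 of 49 helicase genes was called higher and 3 lower, which is 2.04% and 6.12%, where 7.57% and 2.92% of all genes were called. In either direction 8.16% of the helicase genes and 10.5% of all genes were called, so the family's share was near that of all genes. At an unadjusted p under 0.05 the helicase genes had 8 higher and 9 lower (16.3% and 18.4%), against 15.7% and 8.12% of all genes. The median difference of the helicase genes was 0.03, as over all genes, and 26 lay above and 23 below 0. With group alone it was -0.06, with 23 above and 26 below 0, against -0.19 over all genes. Without the lower set, 5 were called, against 8.62% of all genes: Ddx18 and Ddx24 higher (6.29% of all genes) and Ddx5, Ddx17 and Ddx39b lower (2.33%). With group alone limma called 0 higher and 2 lower, Ddx5 and Ddx17, where 0.708% and 0.64% of all genes were called. Unadjusted, that fit had 3 higher and 8 lower, against 5.61% and 7.07% of all genes.

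**Figure D1:**
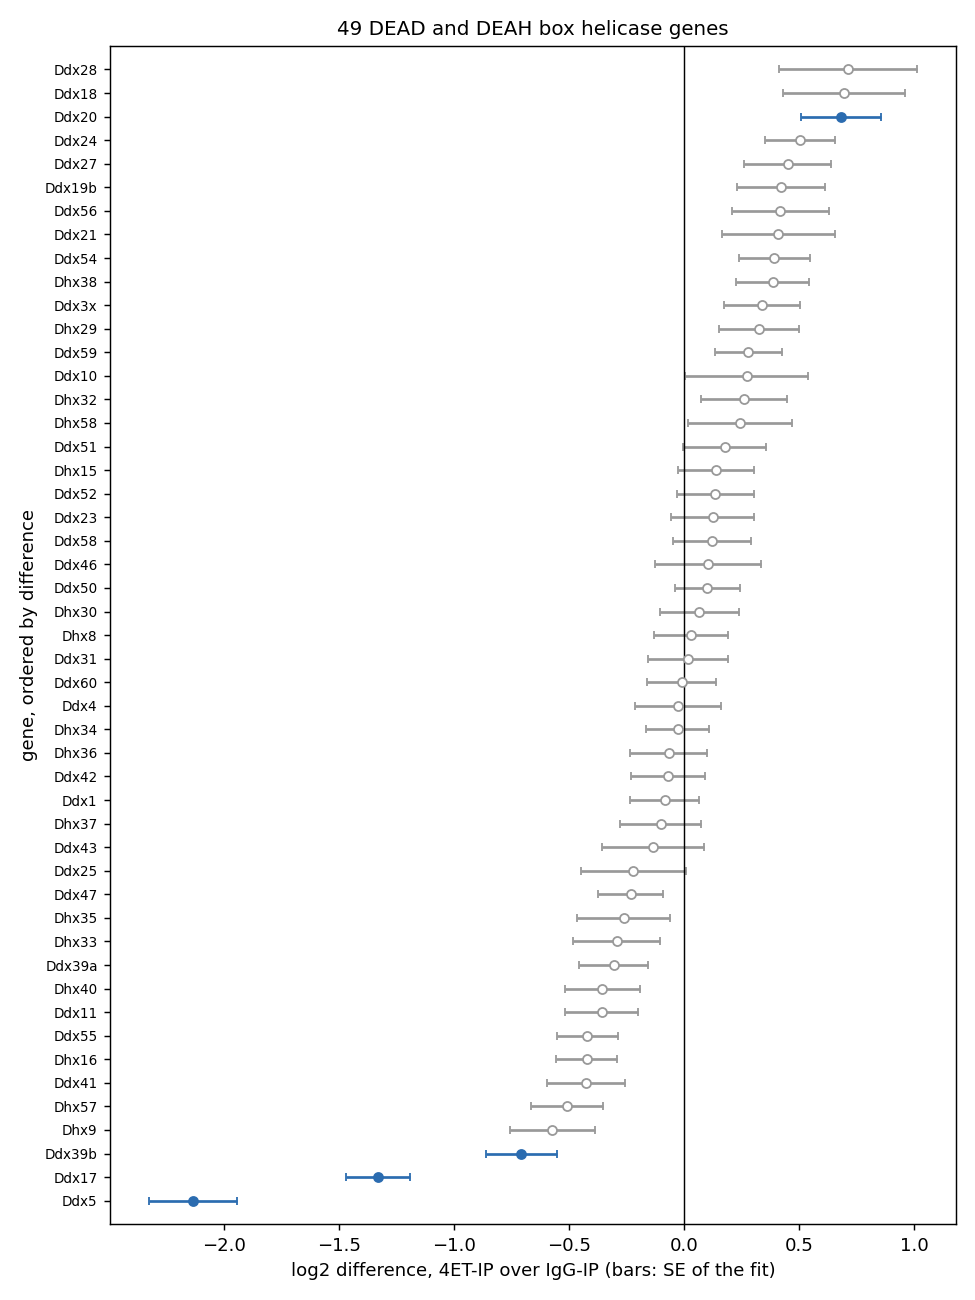
Log2 difference of each of the 49 helicase genes, 4ET-IP over IgG-IP (x axis), ordered by size (y axis). Points are estimates of the fit, bars their standard errors, and filled points passed an adjusted p of 0.05. Ddx5 and Ddx17 stand below the rest at -2.14 and -1.33, and no gene lies above 0.71.

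Ddx5 lay at the low end of the family. Its values were 7.54, 8.97 and 8.96 on 4ET-IP 1, 2 and 3. They were 11.17, 11.26 and 10.63 on IgG-IP 2, 3 and 4, and 9.46, 10.35, 10.49 and 10.36 on inputs 1 to 4. The groups did not overlap: every 4ET-IP array was below every input, and every IgG-IP array was above every input. The difference of 4ET-IP over IgG-IP was -2.14 ± 0.19 (adjusted p = 0.000138), the lowest of the 49 and the 28th lowest of all 22180 genes. It was called in all 18 alternative fits, with differences from -2.53 to -2.02. Against input, 4ET-IP differed by -1.57 ± 0.17 (adjusted p = 0.000124), also the lowest of the family and the 78th lowest of all genes. By replicate number the difference of 4ET-IP minus input was -1.92, -1.38 and -1.52. IgG-IP was above input by 0.56 ± 0.17 (adjusted p = 0.0469), the second highest of the family after Dhx9. That call was lost with group alone, with median centring and without any 1 of input 2, 3 or 4, 4ET-IP 2 or 3, or IgG-IP 2 or 3 (adjusted p from 0.00765 to 0.237 over all 18 alternatives). The place of Ddx5 in the family is a description, since the gene was singled out with this result known.

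Ddx17 came next. It read 8.34, 8.54 and 8.52 in 4ET-IP 1, 2 and 3. In IgG-IP 2, 3 and 4 it read 10.02, 9.86 and 9.84, and in inputs 1 to 4 it read 9.12, 9.63, 9.56 and 9.50. Again each 4ET-IP array was below every input and each IgG-IP array above it. The difference was -1.33 ± 0.14 over IgG-IP (adjusted p = 0.000246), the 129th lowest of all genes. It was -0.96 ± 0.12 over input (adjusted p = 0.000309). Both were called in all 18 alternatives. IgG-IP over input was 0.37 ± 0.13 (adjusted p = 0.0681) and not called, but was called after quantile normalization (0.0140), with dim genes left out (0.0278) and with the trend and robust settings (0.0201). Within an array, the log2 value of Ddx5 minus that of Ddx17 was -0.80, 0.43 and 0.44 in 4ET-IP, 1.14, 1.40 and 0.79 in IgG-IP, and 0.34, 0.72, 0.93 and 0.86 in input. So Ddx5 was lower relative to Ddx17 in the 4ET-IP arrays than in the IgG-IP arrays, with no overlap, and 4ET-IP 1 was the lowest. The size of the offset has no meaning of its own, since the probe sets differ.

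Ddx39b was measured at 8.68, 9.04 and 9.09 with 4E-T and at 10.03, 9.81 and 9.69 with IgG. The inputs gave 9.04, 9.91, 9.81 and 9.82, of which the first is in the lower set. The precipitates did not overlap, and input 1 was level with the 4ET-IP arrays. The difference was -0.71 ± 0.15 over IgG-IP (adjusted p = 0.0138) and -0.66 ± 0.14 over input (0.00526). The first call was lost with group alone and without 4ET-IP 2 or 3 (adjusted p of 0.128, 0.0936 and 0.0820, from 0.00296 to 0.128 over the alternatives). The second was lost with group alone (0.129, from 0.000895 to 0.129). IgG-IP over input was 0.05 ± 0.14 and not called.

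Ddx20 moved the other way. Its values were 7.65, 7.97 and 7.65 in 4ET-IP, 7.28, 7.17 and 6.91 in IgG-IP, and 6.60, 6.91, 6.77 and 6.47 in input. Both comparisons of 4ET-IP were without overlap, while IgG-IP 4 and input 2 were level. The difference was 0.68 ± 0.17 over IgG-IP (adjusted p = 0.0275) and 1.08 ± 0.15 over input (0.000528), the highest of the family against input. The call over input held in all 18 alternatives. That over IgG-IP held in 8 of them, and was lost with group alone, with median centring or quantile normalization, without the lower set or either array of it, and without 4ET-IP 2, 4ET-IP 3, IgG-IP 3 or IgG-IP 4 (adjusted p from 0.0128 to 0.220). IgG-IP over input was 0.40 ± 0.16 (0.120).

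**Figure D2:**
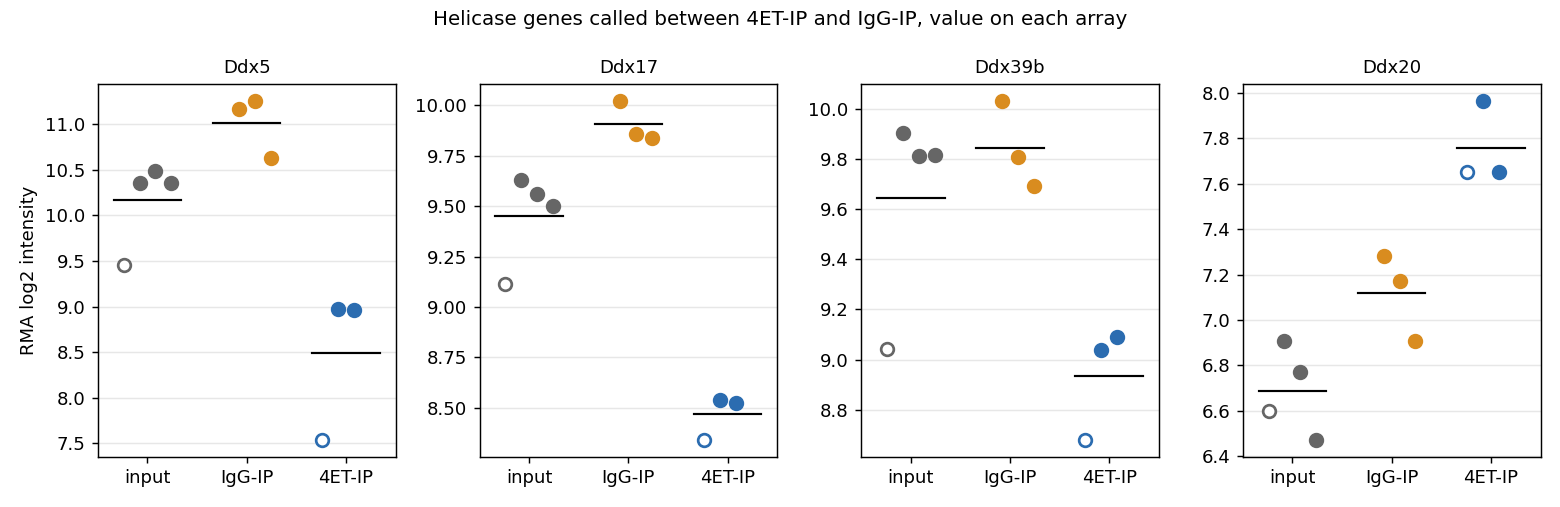
RMA log2 intensity (y axis, its own range in each panel) of the 4 helicase genes called between 4ET-IP and IgG-IP, on each of the 10 arrays by group (x axis). Open points are the 2 arrays of the lower set and lines are group means. Ddx5, Ddx17 and Ddx39b are lowest in 4ET-IP, and Ddx20 is highest there.

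Probe sets of the same gene gave different estimates. Ddx5 has its own probe set, used above, and a second one annotated to Ddx5 and Mir3064 together. The shared probe set read 9.73, 9.91 and 9.92 in 4ET-IP, 10.82, 10.81 and 10.67 in IgG-IP, and 9.81, 10.44, 10.33 and 10.43 in input. It was lower in 4ET-IP than in IgG-IP by a smaller amount, -0.78 ± 0.14 or 1.72-fold (adjusted p = 0.00604). Over input it differed by -0.36 ± 0.13 (adjusted p = 0.0703) and IgG-IP over input by 0.42 ± 0.13 (0.0521), neither of them called. Within an array, the own minus the shared probe set was -2.20, -0.94 and -0.96 in 4ET-IP, 0.35, 0.45 and -0.04 in IgG-IP, and -0.36, -0.09, 0.16 and -0.07 in input. The means were -1.36 ± 0.72 (SD, n = 3) in 4ET-IP and 0.25 ± 0.26 (SD, n = 3) in IgG-IP. The lowest value is from 4ET-IP 1, of the lower set, which has no IgG-IP array, and the other 2 4ET-IP arrays also lay below all IgG-IP arrays. Both probe sets were called lower in 4ET-IP than in IgG-IP. An exact test of own minus shared between these groups gave a difference of -1.62 (p = 0.1). With 3 arrays in each group that test cannot fall below 0.05, so it does not decide whether the size differs.

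Ddx39b has 3 probe sets of its own. The second read 7.39, 8.02 and 7.85 in 4ET-IP, 9.47, 9.48 and 9.45 in IgG-IP, and 8.07, 8.93, 8.998 and 8.92 in input. It was lower in 4ET-IP than in IgG-IP by -1.48 ± 0.14 (2.78-fold, adjusted p = 0.000187), a larger difference than on the first. It was also called for IgG-IP over input, at 0.56 ± 0.13 (0.0107). The third read 6.70, 7.52 and 7.16 in 4ET-IP, 6.89, 7.45 and 6.17 in IgG-IP, and 7.86, 8.43, 7.88 and 7.52 in input. On it 4ET-IP and IgG-IP overlapped (0.40 ± 0.33, adjusted p = 0.525), and IgG-IP was lower than input, by -1.17 ± 0.30 (0.0188). The call of Ddx39b as lower in 4ET-IP than in IgG-IP thus rests on 2 of its 3 probe sets. Over input, 4ET-IP differed by -0.92 ± 0.12 on the second (adjusted p = 0.000387). On the third it differed by -0.76 ± 0.29 (0.0926), which was not called.

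**Figure D3:**
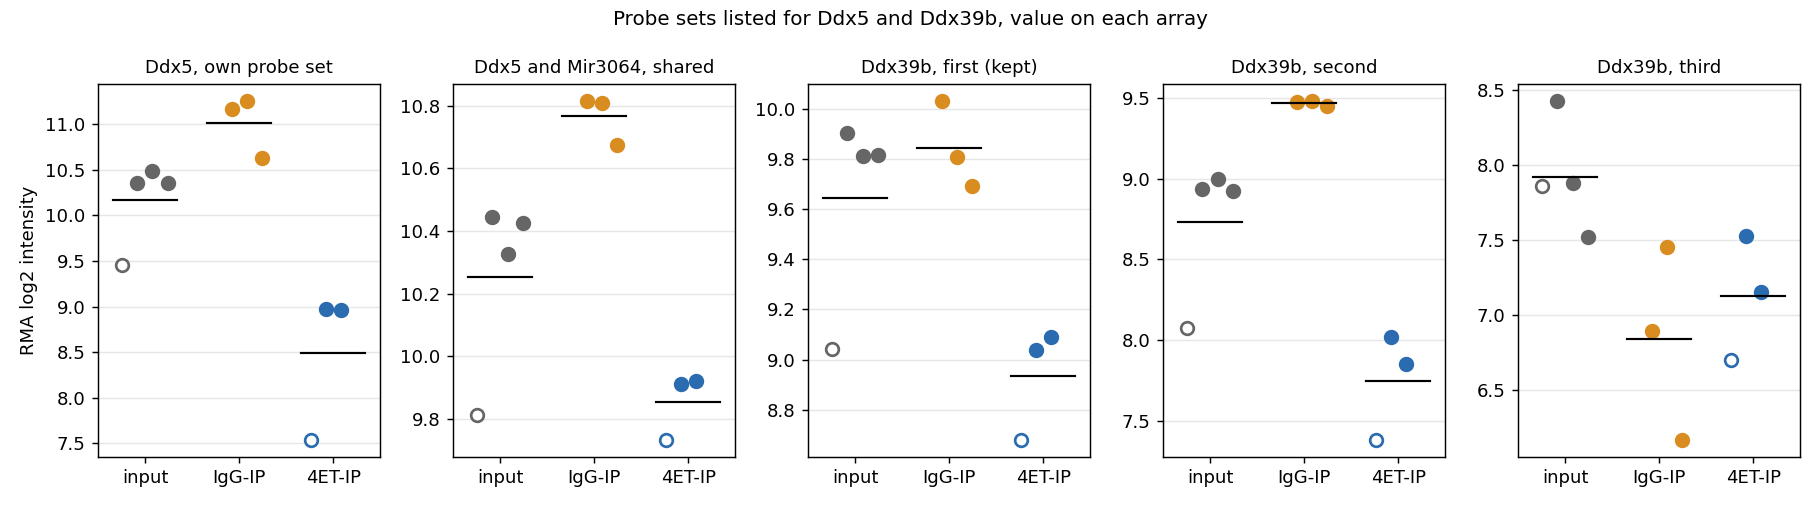
RMA log2 intensity (y axis, its own range in each panel) on each array by group (x axis) for the 2 probe sets listed for Ddx5 and the 3 of Ddx39b. Open points are the lower set and lines are group means. Both Ddx5 probe sets are lowest in 4ET-IP, over a wider range on its own probe set, and the third probe set of Ddx39b is highest in input.

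Among the other cofactors of transcription and RNA processing, 2 genes did not pass the test of 4ET-IP over IgG-IP. Dhx9, which encodes RNA helicase A, was at -0.57 ± 0.18 (adjusted p = 0.0712), and was called with dim genes left out (0.0361) and with the trend and robust settings (0.0352). It read 8.64, 9.01 and 8.99 in 4ET-IP, 9.42, 9.32 and 9.56 in IgG-IP, and 9.06, 8.68, 8.48 and 8.69 in input, so the IgG-IP arrays stood above both other groups. Ddx1, a helicase of the tRNA ligase complex, was at -0.08 ± 0.15.

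Of the 15 helicase genes of ribosome biogenesis limma called 0 in 4ET-IP over IgG-IP (4 higher and 1 lower at an unadjusted p under 0.05, where 15.7% and 8.12% of all genes are). Their median difference was 0.17 against 0.03 over all genes, and 11 lay above 0 (with group alone 0.10 against -0.19, and 9). Ddx18, a nucleolar helicase of large-subunit assembly, led with 0.69 ± 0.27 (adjusted p = 0.129), and Ddx55 was lowest at -0.42 ± 0.13 (0.0631, called with dim genes left out, 0.0246). Ddx18 was called without the lower set or either array of it (0.90, adjusted p = 0.0367) and with the mean of its 2 probe sets (0.82, 0.0393). Its second probe set was called on its own, at 0.95 ± 0.22 (0.0175). The values of the first were 9.41, 9.50 and 9.79 in 4ET-IP, 9.17, 8.66 and 8.42 in IgG-IP, and 9.21, 8.46, 8.32 and 8.13 in input, so 4ET-IP was above both other groups and input 1 above the other inputs.

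The 9 spliceosome helicase genes, which remodel the splicing machinery at its successive steps, had 0 calls in limma for 4ET-IP over IgG-IP (1 higher and 2 lower unadjusted). They ran from -0.43 ± 0.17 for Ddx41 to 0.38 ± 0.16 for Dhx38. Dhx16 (-0.42 ± 0.13, adjusted p = 0.0659) was called after quantile normalization (0.0199) and with dim genes left out (0.0262). Of the 3 mRNA export genes Ddx39b was lower, and Ddx39a (-0.31 ± 0.15) and Ddx19b (0.42 ± 0.19) were not called. The genes of the mitochondrial ribosome, Ddx28 (0.71 ± 0.30, adjusted p = 0.169) and Dhx30 (0.06 ± 0.17), were not called either. IgG-IP 3 was the lowest array for Ddx28, at 4.60 against 5.77 and 5.84 in the other two. Without it the difference was 0.31 (adjusted p = 0.395), and that of IgG-IP over input was -0.32 in place of -0.72 (0.297). Among the 4 genes of translation and cytoplasmic mRNA limma called 0 (0 unadjusted), from Dhx36, a G-quadruplex helicase, at -0.07 ± 0.17 to Ddx3x, a helicase of translation initiation, at 0.34 ± 0.17.

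The helicase genes best known from the germ line and from innate immunity were not called between the precipitates, and some were dim. Ddx4, the germ cell marker vasa, lay between 2.12 and 2.87 on all 10 arrays, and Ddx60 between 1.87 and 2.93. Limma called 0 of 3 germ line genes and 0 of 3 immune genes between the precipitates (0 and 0 unadjusted), and Dhx58, which encodes LGP2, led the latter at 0.24 ± 0.23. Ddx11, a DNA helicase gene, was at -0.36 ± 0.16. Of the 4 genes with another or an unsure role limma called 0 (1 lower unadjusted), and Dhx57 was lowest at -0.51 ± 0.16 (adjusted p = 0.0612, called with dim genes left out, 0.0278). A probe set shared by Dhx57 and its neighbour Morn2 went the other way, at 0.73 ± 0.17 (0.0183).

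The second comparison set 4ET-IP against total RNA of the tissue, and its calls were mostly on the lower side. Of the 49 helicase genes, 10 were lower (20.4%, against 8.86% of all genes) and 3 higher (6.12%, against 10.4%), together 26.5% against 19.3%. Among genes above the median level, the larger share in both directions together did not hold. There 16 of 44 helicase genes were called in either direction (36.4%), against 43.9% of all such genes. The 10 lower calls stayed in that fit. Added were Ddx55, lower (-0.28, adjusted p = 0.0488), and Ddx3x (0.41, 0.0343) and Dhx36 (0.44, 0.0269), higher. Of all 11090 such genes, 2216 were called lower and 2655 higher. In the 8 other arrays 8 were lower and 4 higher, against 7.20% and 8.88% of all genes, with Dhx36 added to the higher ones (0.62, adjusted p = 0.0172). With group alone 5 were lower and 2 higher, against 3.58% and 2.56%. The median difference was 0.01, and over all genes 0.04. The genes called lower were Ddx5, Ddx25, Ddx17, Ddx41, Ddx39a, Ddx39b, Ddx23, Ddx47, Dhx16 and Ddx1, and those called higher Ddx20, Ddx18 and Ddx21.

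Ddx25, which encodes a testis helicase of mRNA storage and export, differed most after Ddx5, at -1.18 ± 0.20 (2.26-fold lower, adjusted p = 0.00167). It read 6.28, 6.12 and 6.38 in 4ET-IP, 6.92, 6.18 and 6.75 in IgG-IP, and 6.89, 7.68, 7.62 and 7.69 in input. Input 1 lay below the other inputs and within the range of IgG-IP. The spliceosome genes Ddx41 (-0.79 ± 0.15), Ddx23 (-0.61 ± 0.16) and Dhx16 (-0.58 ± 0.12) were lower, and the other 6 of that group were not called. Both DDX39 genes were lower, Ddx39a by -0.74 ± 0.13 on its own probe set and Ddx39b as given above. A probe set shared by Ddx39a and Adgre5 went the other way and was not called. It was at 0.21 ± 0.21 over input (adjusted p = 0.610) and 0.44 ± 0.23 over IgG-IP (0.294). Ddx47, a helicase of small-subunit assembly, was at -0.60 ± 0.12 and Ddx1 at -0.45 ± 0.13 (adjusted p = 0.00493 and 0.0318).

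On the higher side beside Ddx20 were 2 nucleolar helicase genes of ribosome biogenesis. Ddx18 was 2.01-fold higher, at 1.01 ± 0.24 (adjusted p = 0.00988). Ddx21, whose protein works on ribosomal RNA transcription and processing, was at 0.71 ± 0.22 (0.0410). Ddx21 read 7.71, 8.22 and 8.25 in 4ET-IP and 7.88, 7.15, 7.04 and 7.29 in input, so input 1 was above 4ET-IP 1. Its second probe set was also called, at 0.88 ± 0.24 (0.0235). By replicate number, the 4ET-IP minus input difference of the second probe set was 0.25, 1.18 and 1.35.

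Ddx5, Ddx17, Ddx20, Ddx25, Ddx39a and Ddx41 were called against input in all 18 alternatives. Ddx39b, Ddx47 and Dhx16 were lost with group alone, and Ddx47 also with median centring. Ddx23 was lost with group alone, with median centring, without input 1, 4ET-IP 1 or both, and without 4ET-IP 2 (adjusted p from 0.00678 to 0.182 over its alternatives). Ddx18 was lost with median centring and without 4ET-IP 2 or 3 (from 0.00310 to 0.0810). Ddx21 was lost with group alone, with median centring, quantile normalization or the replicate block (0.68, adjusted p = 0.0725), and without input 2, 3 or 4 or 4ET-IP 2 or 3 (from 0.00272 to 0.210). Ddx1 was lost with group alone, with median centring or quantile normalization, and without input 1, 2 or 3 or 4ET-IP 1, 2 or 3 (from 0.0109 to 0.351). Within the lower set the median of 4ET-IP 1 minus input 1 was -0.27 over the helicase genes and 0 over all genes. For the arrays numbered 2 and 3 it was 0.07 and 0.16, against 0.06 and 0.02 over all genes. Some genes had equal values on the 2 arrays of the lower set, among them Dhx36 (7.80) and Ddx60 (1.87). The reason was not tested, and it limits the use of that median of 0 as a reference.

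The third comparison, control IgG against input, gives the background of the precipitation. Of the 49 helicase genes 7 were lower (14.3%, against 10.5% of all genes) and 3 higher (6.12%, against 6.14%), together 20.4% against 16.6%. In the 8 other arrays the numbers were 7 and 4 (9.97% and 5.68% of all genes), with Dhx40 added to the higher ones (0.46, adjusted p = 0.0423). With group alone limma called 0, where 1.45% of all genes were called higher and 3.99% lower, together 5.44%. Unadjusted, 6 were higher and 6 lower, 12.2% each, against 9.27% and 8.58% of all genes. With the set term and only genes above the median level, 14 of 44 helicase genes were called in either direction. That is 31.8%, against 37.4% of all such genes, so the family's share was not larger there. Dhx9 was highest, at 0.72 ± 0.17 (adjusted p = 0.0119), followed by Ddx5 and Dhx36 (0.51 ± 0.15, 0.0409). Ddx25 was lowest, at -0.96 ± 0.21 (0.00825). The others called lower were Ddx56 (-0.78 ± 0.19), Ddx23 (-0.73 ± 0.16), Ddx27 (-0.69 ± 0.17), Dhx38 (-0.64 ± 0.15), Ddx54 (-0.57 ± 0.14) and Ddx59 (-0.52 ± 0.13). Ddx27, Ddx54 and Ddx56 are nucleolar helicases of ribosome assembly, and Dhx38 encodes the splicing helicase PRP16.

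Besides the fit with group alone, these calls were lost as follows. Ddx54 and Ddx56 were lost without input 4 (adjusted p = 0.0548 and 0.0509, up to 0.211 and 0.0776 over the alternatives). Ddx27 was lost without input 2, input 4 or IgG-IP 4 (from 0.00670 to 0.103 over the alternatives), and Ddx59 without input 2, input 3 or IgG-IP 3 (from 0.00749 to 0.335). Dhx9 was lost with median centring (0.237, the highest of its alternatives). Dhx36 was lost with median centring and without input 2, 3 or 4, IgG-IP 2 or 3, or 4ET-IP 3 (from 0.0141 to 0.228). Without IgG-IP 2, Ddx28 (-0.94, adjusted p = 0.0480) and Ddx1 (-0.47, 0.0432) were called lower as well.

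The comparisons of both precipitates with input share the input arrays, so their values are set side by side only. Ddx25 and Ddx23 were called lower in both, Ddx25 by -1.18 in 4ET-IP and -0.96 in IgG-IP and Ddx23 by -0.61 and -0.73. Between the precipitates neither was called (-0.22 ± 0.23 and 0.12 ± 0.18). Ddx5 was lower in 4ET-IP and higher in IgG-IP than input. Ddx56, Ddx27, Ddx54 and Dhx38 were called lower than input in IgG-IP and not in 4ET-IP (-0.37 ± 0.19, -0.24 ± 0.17, -0.18 ± 0.14 and -0.25 ± 0.14). The direct comparison of the precipitates did not call these 4 (0.42 ± 0.21, 0.45 ± 0.19, 0.39 ± 0.15 and 0.38 ± 0.16), so they are not shown to differ between 4ET-IP and IgG-IP.

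**Figure D4:**
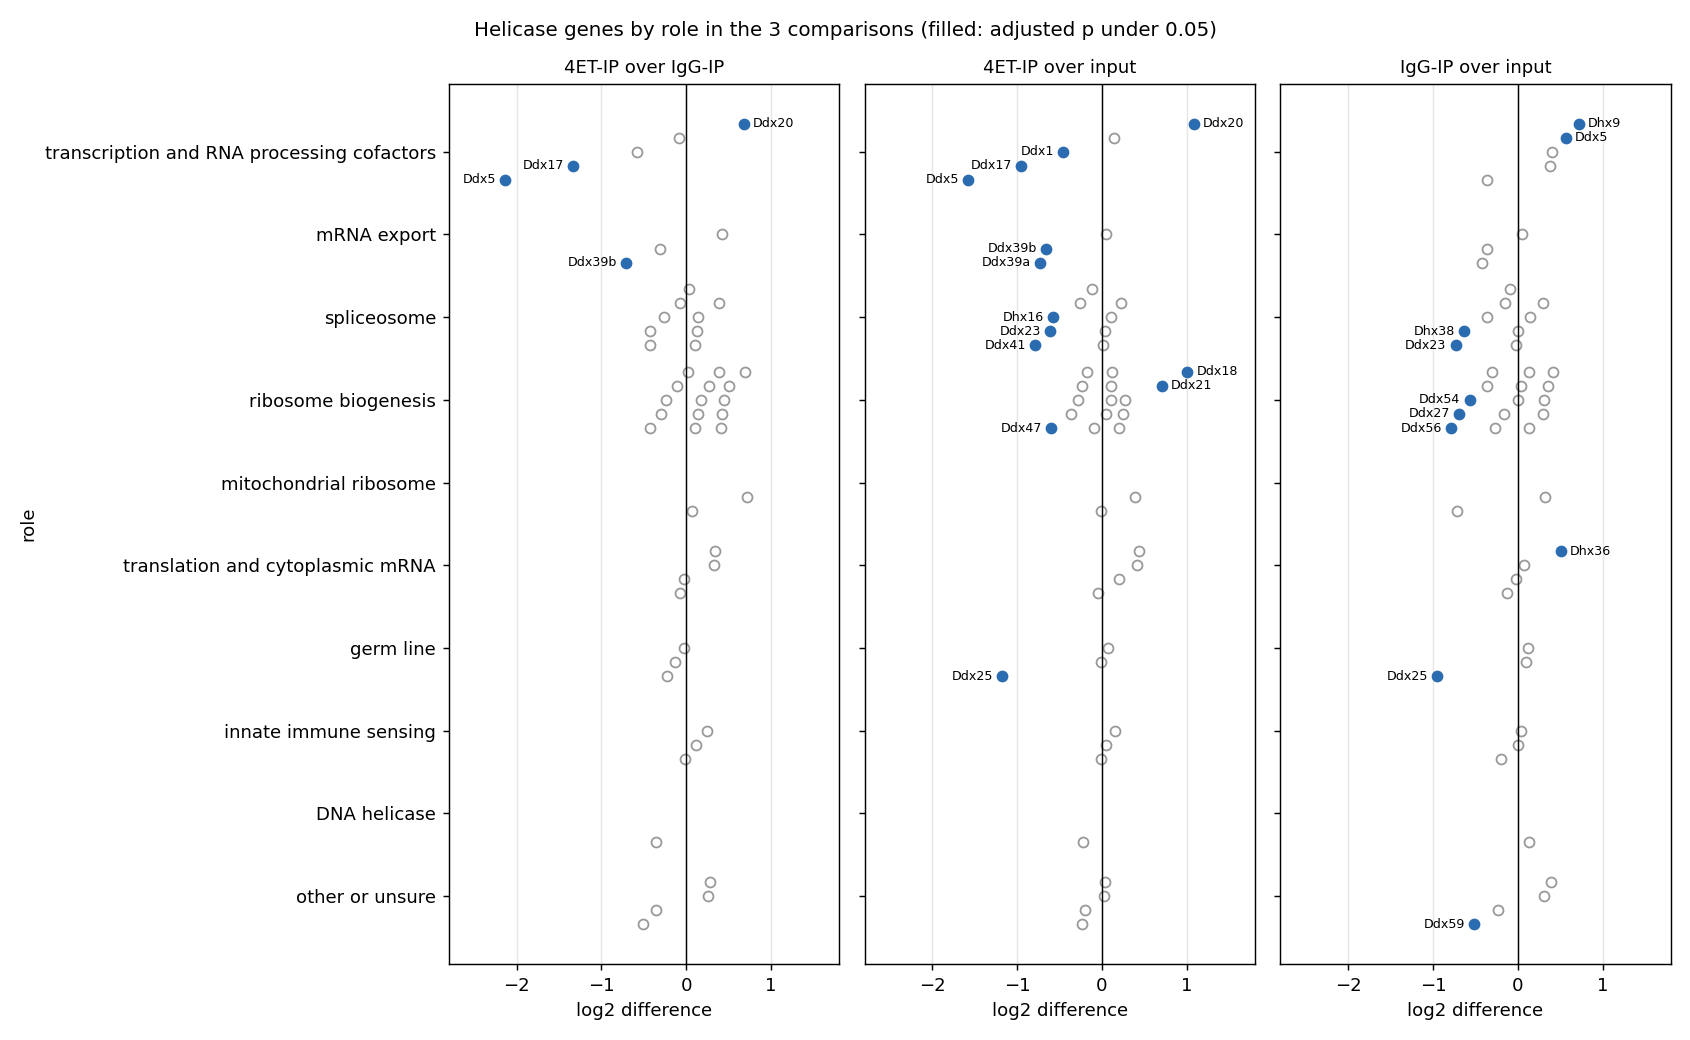
Log2 difference (x axis) of each helicase gene in the 3 comparisons, one panel each, by role (y axis); the small vertical offsets within a role only separate points. Filled, named points passed an adjusted p of 0.05, and the lower calls in 4ET-IP over IgG-IP lie in 2 roles, the cofactors of transcription and RNA processing and mRNA export.

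By the kind of symbol, all 4 calls between the precipitates were Ddx genes, 4 of 33 or 12.1%, against 10.5% of all genes. Among the 16 Dhx genes limma called 0 (1 higher and 3 lower unadjusted), and they ran from -0.57 for Dhx9 to 0.38 for Dhx38. Whether Ddx and Dhx genes differ was not tested.

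A list of 19 further RNA helicase genes outside the symbol rule was measured as well, and 5 of them were called between the precipitates. Lower were Eif4a2 (-1.16 ± 0.18, adjusted p = 0.00232), Eif4a1 (-1.11 ± 0.13, 0.000510) and Snrnp200 (-0.67 ± 0.18, 0.0367). Eif4a1 and Eif4a2 encode the DEAD box helicases of the cap-binding complex eIF4F, and Snrnp200 the Brr2 helicase of the spliceosome. Higher were Znfx1 (0.68 ± 0.16, 0.0179) and Ifih1 (0.63 ± 0.17, 0.0324), which encodes the RNA sensor MDA5. Ifih1 was dim, at 2.55, 3.42 and 3.73 in 4ET-IP, 3.00, 2.86 and 2.69 in IgG-IP, and 2.36 to 2.88 in input, and 4ET-IP 1 lay below every IgG-IP array, so its difference rests on values at the low end of the scale. That is 2 higher and 3 lower of 19, or 26.3% called, against 7.57% higher and 2.92% lower (10.5%) of all genes. The list was chosen with earlier results known, and its median was -0.18 (with group alone -0.41, against -0.19 over all genes). Eif4a1 read 8.55, 9.14 and 9.21 in 4ET-IP, 10.19, 10.27 and 10.39 in IgG-IP, and 9.14, 9.77, 9.74 and 9.67 in input. As with Ddx5 and Ddx17, its 4ET-IP arrays, compared within and outside the lower set, lay below the inputs and its IgG-IP arrays above them, and IgG-IP over input was called for Eif4a1 (0.55 ± 0.12, 0.00843), though not with group alone (0.119) or with the mean of its probe sets (0.0647). Eif4a1 has 2 probe sets of its own and Eif4a2 has 3, and their estimates differ. With the mean of its probe sets, IgG-IP over input for Eif4a2 was 0.89 (adjusted p = 0.00284), against 0.17 (0.573) in the main fit. For Eif4a1 that mean gave -0.33 for 4ET-IP over input (0.0714), against -0.56 (0.00549). With group alone Eif4a1 and Eif4a2 were called between the precipitates and the other 3 were not. Znfx1 was also lost without 4ET-IP 3 (0.115). Snrnp200 was lost without 4ET-IP 2 or 3, IgG-IP 2, 3 or 4, or input 3, and with median centring or quantile normalization. Ifih1 was lost without 4ET-IP 2 or 3, IgG-IP 3 or 4, or input 3, and with median centring.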

How the data were processed

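The deposited table holds log2 intensities from RMA (robust multi-array average). Per the submitters' processing notes, the authors used RMA and Affymetrix Expression Console. RNA was precipitated with a Magna RIP kit and amplified with the NuGEN Pico protocol, per the labels' protocols. Software versions and the build used for probe annotation are not given in the sources used here, and no detection calls were used. Of 41345 probe sets, 23521 had 1 gene symbol in the platform annotation, 1814 several and 16010 none. Where a gene had several single-symbol probe sets, that of highest mean signal stood for it, which left 22180 genes.

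All genes were fitted with limma 3.58.1 in R 4.3.3 (lmFit, eBayes) on all 10 arrays, with group and lower set as terms. The script was tested on simulated data. No dim genes were filtered out. The number of arrays limits the precision. Alternatives were group alone, the 8 other arrays, median centring, quantile normalization, the replicate number as a block, dim genes left out, the mean of probe sets, eBayes with trend and robust, and each array left out in turn. The other probe sets of a gene were added after seeing the data. The helicase genes, role lists, set term and rule for named genes were chosen with earlier results of these data known. Named were Ddx5, Ddx17, every called helicase gene and the ends of each role group. Values on every array are given for the genes called between the precipitates. Those of Ddx18, Ddx21, Ddx25, Dhx9, Eif4a1 and other probe sets were added after their values were seen.

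Equal replicate numbers were checked as pairs. Deviations from the group means of same-numbered 4ET-IP and input arrays correlated across genes at 0.623, 0.240 and 0.277, which meets the criterion of more than 0.1 in each pair. Outside the lower set the same correlations were 0.0442 and 0.00845, and 4 differently numbered pairs of these groups, over all 10 arrays, correlated at 0.186 to 0.269. Same-numbered IgG-IP and input arrays correlated at -0.0230, 0.0798 and 0.318, and 4ET-IP and IgG-IP at -0.0672 and 0.0224, so the criterion was not met for IgG-IP. Plots used matplotlib 3.10.9 under Python 3.11.15.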

Additional observations from a re-analysis of the deposited data

Results flagged for a closer look

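In input, 1 of the 4 arrays stood apart for 7 of the 30 named helicase genes. Its gap to its neighbour, as a share of the group's range, was above Dixon's critical value for 4 arrays. By chance that value flags about 1 in 20 groups, a figure that does not allow for the shift of the lower set. The share over all genes was not counted. Input 1, of the lower set, was the low array for Ddx25 (0.910 of the range, 6.89 against 7.62 or more), Ddx39b (0.891), Ddx60 (0.881), Ddx5 (0.872) and Ddx41 (0.835). Input 4 was low for Ddx1 (0.831, 8.92 against 9.05 or more) and input 3 for Ddx27 (0.833, 5.92 against 6.35 or more).

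Probe sets outside the main measurement also differed between the precipitates. The probe set of Ddx5 and Mir3064 differed by -0.78, that of Morn2 and Dhx57 by 0.73, the second of Ddx18 by 0.95 and the second of Ddx39b by -1.48.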

How the results depend on the processing

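With group alone the helicase genes called were 2 for 4ET-IP over IgG-IP, 7 for 4ET-IP over input and 0 for IgG-IP over input, from 4, 13 and 10 with the set term; over all genes they were 299, 1361 and 1206. Median centring gave 8 for 4ET-IP over input (1510 and 2662 over all genes for the 4ET-IP comparisons). With dim genes left out 9 of 44 were called for 4ET-IP over IgG-IP (20.5%), against 2896 of 11090 genes (26.1%). Leaving out 1 array gave 2 to 5, 9 to 13 and 5 to 11 helicase genes, and 930 to 2268, 2703 to 4679 and 2612 to 3471 genes in all. The lowest counts of helicase genes were without 4ET-IP 2 or 3 (2 each) and without input 4 (5) or input 2 (6). Leaving out input 1 or 4ET-IP 1 gives the same estimates as the 8 other arrays, since the set term then fits the remaining array of the set. With the replicate block 5, 12 and 13 helicase genes were called, and 2454, 4510 and 4120 genes in all (2326, 4274 and 3688 without it). IgG-IP arrays share only a number with the others, and not every array correlated best with its own number. Under the block Ddx28 was called for 4ET-IP over IgG-IP (0.82, adjusted p = 0.0373) and Ifih1 (0.0575) and Snrnp200 (0.0528) were not. For IgG-IP over input Ddx20 (0.41, 0.0440), Ddx28 (-0.74, 0.0238) and Ddx39a (-0.42, 0.0466) were called. It changed no other call of a named gene than these and Ddx21 over input. The third probe set of Ddx39b reversed 2 values, to 0.40 for 4ET-IP over IgG-IP and -1.17 for IgG-IP over input. The causes were not tested.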
